A study of Homo sapiens with 6 samples.

Results

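The transcripts of FMR1, FXR1, FXR2, CYFIP1, CYFIP2 and NUFIP2 encode the fragile X protein, its 2 paralogs and 3 of its protein partners, and they were examined as RNA targets of the fragile X family itself. Sites were taken as members when their midpoint fell within the hg19 span of one of these 6 genes, on the strand of the gene. In all, 865 of the 464799 sites in the deposited lists met this rule, and only 6 sites lay on the opposite strand of the same spans.

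The data were RNA binding sites from PAR-CLIP, in which cells take up 4-thiouridine, 365 nm light crosslinks the labelled RNA to bound protein, and the RNA recovered after immunoprecipitation is sequenced. The groups were FXR1, FXR2, I304N FMR1 isoform 7, I304N FMR1 isoform 1, WT FMR1 isoform 7 and WT FMR1 isoform 1, with 1 library each. Every protein carried a FLAG-HA tag and was expressed from a transgene in FlpIn T-REx HEK293 cells, an established human embryonic kidney line, induced with doxycycline at 1 µg/ml while the cells were labelled with 4-thiouridine at 100 µM over 16 h. All 6 lines thus received the same inducer, label, RNase T1 digestion and FLAG immunoprecipitation, and each library came from 1 stable line. A library from cells without a transgene was not analysed here. Each line expressed its transgene in cells of a kidney line and not of a brain, and removal of the cells' own FMR1, FXR1 or FXR2 is not mentioned in the labels.

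The fragile X proteins are RNA-binding proteins with KH domains and an RGG region that associate with polyribosomes and repress translation. Loss of FMR1 causes fragile X syndrome, and I304N is a disease mutation in the second KH domain. CYFIP1 and CYFIP2 bind the fragile X protein and are also subunits of the WAVE complex, which controls actin branching. NUFIP2 is a further RNA-binding partner of the fragile X protein. Isoform 7 is a splice form of FMR1 that lacks exon 12, which encodes part of the second KH domain.

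The lists held 9017 sites for FXR1, 34521 for FXR2, 88644 for I304N FMR1 isoform 7, 132219 for I304N FMR1 isoform 1, 78495 for WT FMR1 isoform 7 and 121903 for WT FMR1 isoform 1. A site count carries no read depth, so levels are given as sites per 100000 sites of the same list. With 1 library per protein no value has a replicate error, and no test across samples was run. Intervals are exact 95% intervals, Clopper-Pearson for shares and conditional for ratios, and they cover counting error only. Sites within a transcript can be neighbours in one crosslinked stretch and are not independent, so the true uncertainty is wider. Scaling by the median ratio over shared windows in place of the list total moved every ratio by a common factor per comparison, between -1.03 and 0.64 on the log2 scale, because the WT FMR1 isoform 1, FXR1 and FXR2 totals became larger and those of the other 3 FMR1 libraries smaller. Reads that also match paralogs or pseudogenes may have been placed on either copy, since their handling is not stated.

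The 6 transcripts together held 31 sites in the FXR1 library, 89 in FXR2, 146 in I304N FMR1 isoform 7, 215 in I304N FMR1 isoform 1, 149 in WT FMR1 isoform 7 and 235 in WT FMR1 isoform 1. As shares these were 344 sites per 100000 (234 to 488) in FXR1 and 258 (207 to 317) in FXR2, against 163 to 193 in the 4 FMR1 libraries. NUFIP2 supplied 48.4% of these sites in FXR1, 47.2% in FXR2, 32.9% in I304N FMR1 isoform 7, 23.3% in I304N FMR1 isoform 1, 28.2% in WT FMR1 isoform 7 and 54.9% in WT FMR1 isoform 1. Of the 36 combinations of transcript and library, 3 had no site, all of them in the FXR1 library, the shortest list.

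**Figure D1:**
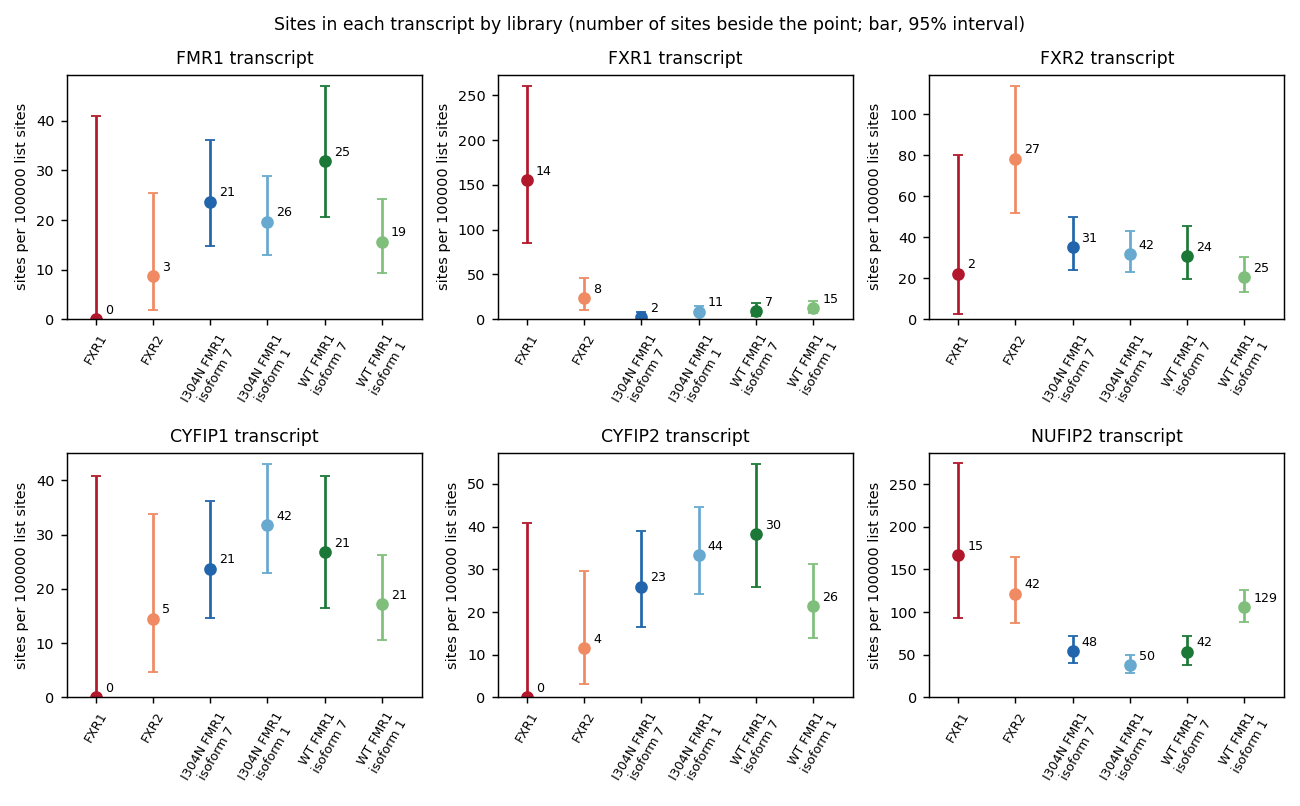
Sites per 100000 sites of the list (vertical axis, a separate scale in each panel) in each of the 6 transcripts, by library. Points are single libraries with their number of sites, and bars are exact 95% intervals. The FXR1 library is highest on the FXR1 transcript, with 14 sites, and the FXR2 library on the FXR2 transcript, with 27.

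The transcripts of the 3 family members came first. FXR1 was the transcript on which its own protein stood furthest above the other libraries. The FXR1 library had 14 sites there, or 155 per 100000 (84.9 to 260). The FXR2 library had 8 (23.2 per 100000), I304N FMR1 isoform 7 had 2 (2.26), I304N FMR1 isoform 1 had 11 (8.32), WT FMR1 isoform 7 had 7 (8.92) and WT FMR1 isoform 1 had 15 (12.3). The interval of the FXR1 library lay above those of the other 5 libraries, while the intervals of the 3 next in order, FXR2, WT FMR1 isoform 1 and WT FMR1 isoform 7, overlapped.

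The FXR1 library exceeded WT FMR1 isoform 1 on the FXR1 transcript by 12.6-fold (5.64 to 28.0), WT FMR1 isoform 7 by 17.4-fold (6.58 to 51.0) and the FXR2 library by 6.70-fold (2.62 to 18.4). Among strand-specific windows of 50 kb with at least 10 sites over the libraries compared, 0.0578%, 0.565% and 0.349% lay as far in the same direction in these 3 comparisons. Under the 9 other ways of counting and scaling, the 3 ratios stayed above 1, within 8.86 to 20.9, 8.53 to 27.8 and 5.31 to 8.28. Among these 9, changes of pseudocount could not move the ratios, and counting any overlap with the span did not. Because each library also contained its own induced transgene RNA, more template and more binding to the FXR1 transcript cannot be told apart.

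Sites on the FXR1 transcript were narrow and spread out. They fell into 16 blocks, where a block joins sites of any library with gaps of at most 200 nt, and the FXR1 library had sites in 11 of these. Its sites were 11 to 46 nt wide with a median of 20.5 nt, and none of the 57 sites of any library reached 60 nt. The blocks with the most sites were chr3:180669089-180669215 with 7 sites, 3 of them from the FXR1 library and 2 from FXR2, chr3:180680794-180680878 with 6, and chr3:180685841-180685874 with 6, 1 from each library. The first of these blocks began 38855 nt from the 5′ end of the span. Of the 14 sites of the FXR1 library, 7 (50%, 23.0 to 77.0) overlapped a site of WT FMR1 isoform 1, against 6311 of 9017 over the list. An FXR2 site was met by 3 (21.4%, 4.66 to 50.8), against 74.4% over the list, and 4 overlapped no site of another library.

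The FXR2 transcript showed the same order for its own protein with a smaller margin. The FXR2 library had 27 sites, or 78.2 per 100000 (51.5 to 114). FXR1 had 2 (22.2 per 100000), I304N FMR1 isoform 7 had 31 (35.0), I304N FMR1 isoform 1 had 42 (31.8), WT FMR1 isoform 7 had 24 (30.6) and WT FMR1 isoform 1 had 25 (20.5). The FXR2 interval lay above those of the 4 FMR1 libraries and overlapped the wide one of FXR1, 2.69 to 80.1.

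The FXR2 library exceeded WT FMR1 isoform 1 on its own transcript by 3.81-fold (2.13 to 6.85) and WT FMR1 isoform 7 by 2.56-fold (1.42 to 4.63). Of windows with at least 10 sites, 1.05% lay as far in the first comparison and 13.2% in the second. Counted as nucleotides covered, the ratios were 9.37 and 5.51. With median-of-ratios scaling they were 3.56 and 1.58, and with wide sites left out 2.38 and 1.68, so the excess over WT FMR1 isoform 7 passed 2-fold only under part of the settings. Here too, transgene RNA and binding cannot be told apart.

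Width set the FXR2 library apart on the FXR2 transcript. Of its 27 sites there, 9 were at least 60 nt wide (33.3%, 16.5 to 54.0), against 0.154% of the whole list, and these were 9 of the 53 sites of that width in the whole list. The median width was 50 nt on this transcript and 20 nt over the list. On the same transcript the other libraries had 0 of 2 such sites in FXR1, 1 of 31 in I304N FMR1 isoform 7, 5 of 42 in I304N FMR1 isoform 1, 0 of 24 in WT FMR1 isoform 7 and 0 of 25 in WT FMR1 isoform 1. The list share was 0.0222% in FXR1, and the 4 FMR1 lists had 1.51% to 6.35%. The FXR1 library had no such site on the FXR1 transcript.

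**Figure D2:**
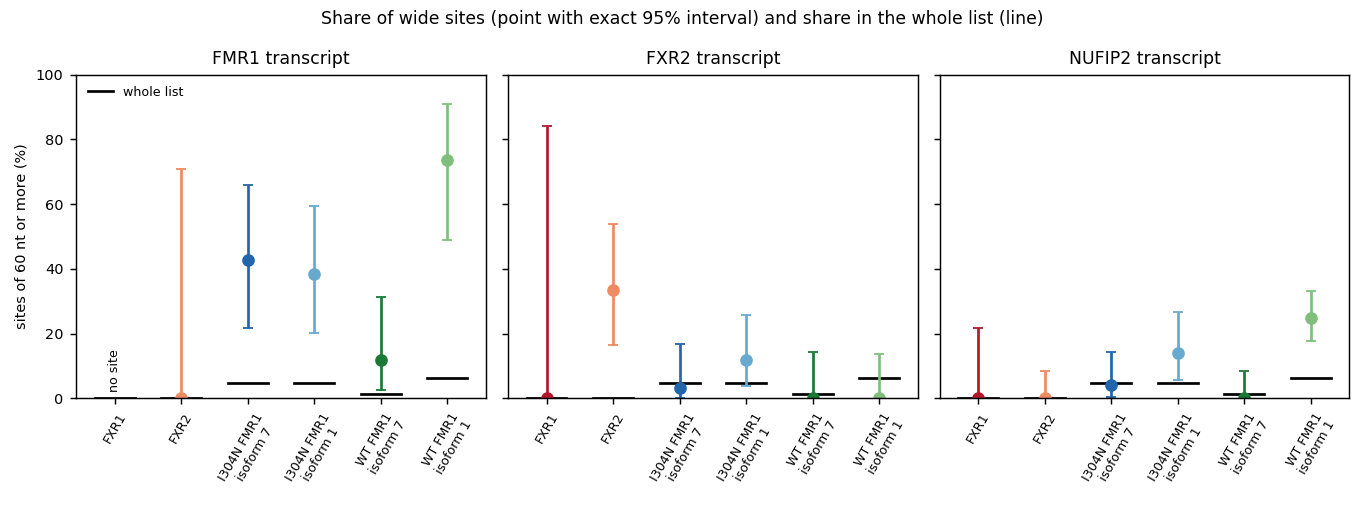
Percent of sites at least 60 nt wide (vertical axis) on the FMR1, FXR2 and NUFIP2 transcripts by library, as points with exact 95% intervals, beside the percent in the whole list of that library, drawn as a line. The FXR2 library stands at 33.3% on the FXR2 transcript, and WT FMR1 isoform 1 at 73.7% on the FMR1 transcript.

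All 13 blocks of the FXR2 transcript held a site of the FXR2 library. The 3 fullest blocks lay next to each other at the 3′ end, chr17:7495577-7496487 with 37 sites, chr17:7494603-7495239 with 28 and chr17:7496742-7496946 with 18. In the last 2500 nt of the span were 15 of 27 sites of the FXR2 library (55.6%, 35.3 to 74.5), 17 of 31 of I304N FMR1 isoform 7, 23 of 42 of I304N FMR1 isoform 1, 12 of 24 of WT FMR1 isoform 7 and 15 of 25 of WT FMR1 isoform 1. The shares ran from 50% to 60%, with overlapping intervals. In the last 1000 nt the FXR2 library had 2 of its 27 sites (7.41%, 0.910 to 24.3). There I304N FMR1 isoform 7 had 22.6%, I304N FMR1 isoform 1 had 23.8%, WT FMR1 isoform 7 had 20.8% and WT FMR1 isoform 1 had 16%, all within that interval. A site of I304N FMR1 isoform 1 was met by 24 of the 27 FXR2 sites (88.9%, 70.8 to 97.6), against 46.2% over the list. For I304N FMR1 isoform 7 it was 20 of 27 (74.1%, 53.7 to 88.9), against 34.8%. For WT FMR1 isoform 7 it was 17 of 27 (63.0%, 42.4 to 80.6), against 32.1%. For WT FMR1 isoform 1 it was 19 of 27 (70.4%, 49.8 to 86.2), an interval that holds the 64.4% of the list.

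On the FMR1 transcript, FXR1 had no site and FXR2 had 3 (8.69 per 100000, 1.79 to 25.4). I304N FMR1 isoform 7 had 21 sites (23.7 per 100000), I304N FMR1 isoform 1 had 26 (19.7), WT FMR1 isoform 7 had 25 (31.8) and WT FMR1 isoform 1 had 19 (15.6). The intervals of the 4 FMR1 libraries overlapped one another. A count of 0 in the FXR1 library still allows 33.3 sites per 100000 (3 sites), which is above the share in each FMR1 library, so a difference from FXR1 was not detectable at this depth. FXR2 was lower than WT FMR1 isoform 7 by the ratio of 0.273 (0.0527 to 0.894), and 12.7% of windows with at least 10 sites lay as far. Against WT FMR1 isoform 1 the ratio was 0.558 (0.106 to 1.89), and 1.99 with sites of 60 nt or more left out.

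Wide sites were frequent on the FMR1 transcript in the libraries of its own protein. They made up 9 of 21 sites in I304N FMR1 isoform 7 (42.9%, 21.8 to 66.0) against 4.9% of its list, and 10 of 26 in I304N FMR1 isoform 1 (38.5%, 20.2 to 59.4) against 4.85%. WT FMR1 isoform 7 had 3 of 25 (12%, 2.55 to 31.2) against 1.51%, and WT FMR1 isoform 1 had 14 of 19 (73.7%, 48.8 to 90.9) against 6.35%. The 3 sites of the FXR2 library were 20 to 23 nt wide. Site number and covered length therefore ranked the wild-type isoforms differently. WT FMR1 isoform 7 had 2.04 times the site share of WT FMR1 isoform 1 (1.08 to 3.93), but 0.896 times its share of covered nucleotides, 826 nt against 1819 nt of the transcript, 1.07 times its share after sites within 50 nt were joined, and 6.50 times its share with sites of 60 nt or more left out.

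The FMR1 sites formed 17 blocks, and 13 of these held sites of all 4 FMR1 libraries, 12 of them without any FXR1 or FXR2 site. The fullest was chrX:147013947-147014286 with 10 sites, and 4 blocks followed with 9 each, chrX:147010178-147010321, chrX:147011482-147011760, chrX:147024650-147024850 and chrX:147030204-147030366. Edges recurred to the nucleotide: 4 start positions, 147011648, 147014203, 147024650 and 147026388, were each shared by I304N FMR1 isoform 7, I304N FMR1 isoform 1 and WT FMR1 isoform 1. Such starts were not particular to FMR1. Starts in 3 or more libraries were 4 of 76 on FMR1, 4 of 102 on CYFIP2 and 4 of 294 on NUFIP2. On FXR2 they were 3 of 128, on FXR1 2 of 48 and on CYFIP1 1 of 97. CYFIP2 had 2 starts in all 4 FMR1 libraries and FMR1 had 0. The sites that began at 147026388 were 185 nt wide in I304N FMR1 isoform 7, 184 nt in I304N FMR1 isoform 1 and 183 nt in WT FMR1 isoform 1. Some widths were close to exon lengths. The sites of WT FMR1 isoform 1 that began at 147024650 and 147026388 were 197 and 183 nt wide, and exons 14 and 15 of the GENCODE transcript FMR1-205 are 196 and 183 nt long. The annotation is for another build than the sites, so exons were compared by length and not by position.

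One block, of 64 nt, was close to the length of exon 12. At chrX:147019618-147019681 the isoform 1 libraries each had 1 site, of 63 nt in I304N and 62 nt in WT, and neither isoform 7 library had any. Exon 12 of FMR1-205 is 63 nt long, and whether the block is this exon was not tested. The pattern was not limited to it. Sites of both isoform 1 libraries with none of isoform 7 occurred in 2 blocks of FMR1, 3 of FXR1, 2 of CYFIP1 and 3 of CYFIP2, 10 of 106 blocks in all, and the opposite pattern in 0, where the isoform 1 lists are also the longer ones.

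The 3 FXR2 sites on FMR1 lay mostly near the 3′ end. Of these, 2 were in the last 2500 nt of the span, against 2 of 21 for I304N FMR1 isoform 7, 3 of 26 for I304N FMR1 isoform 1, 4 of 25 for WT FMR1 isoform 7 and 3 of 19 for WT FMR1 isoform 1. One of the 3 overlapped sites of I304N FMR1 isoform 7, I304N FMR1 isoform 1 and WT FMR1 isoform 1, and the other 2 overlapped none. With 3 sites the interval of that share, 9.43% to 99.2%, covers the FMR1 values.

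**Figure D3:**
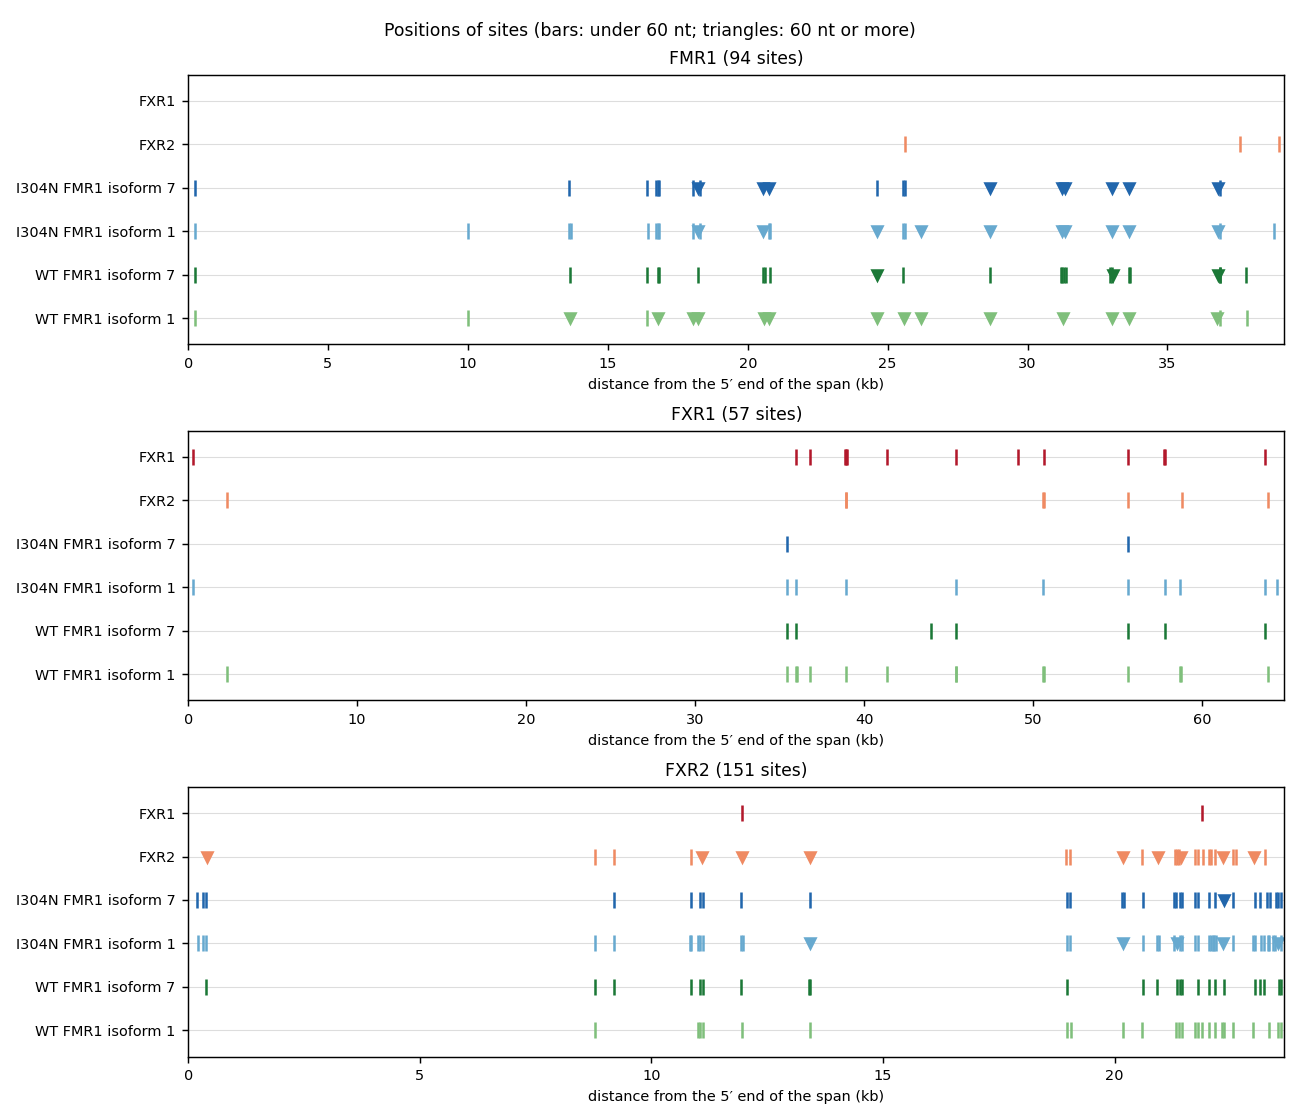
Positions of sites along the spans of FMR1, FXR1 and FXR2, with distance from the 5′ end of the span in kb on the horizontal axis and a row for each library. Bars mark sites under 60 nt and triangles sites of 60 nt or more, not drawn to width. Triangles stand in all 4 FMR1 rows of the FMR1 map and in the FXR2 and both I304N rows of the FXR2 map, and the FXR1 map has none.

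The FMR1 libraries supplied 105 of the 110 sites on CYFIP1 (95.5%) and 123 of the 127 on CYFIP2 (96.9%), and 90.6% of the sites of all lists. CYFIP1 had no site in the FXR1 library, 5 in FXR2 (14.5 per 100000), 21 in I304N FMR1 isoform 7 (23.7), 42 in I304N FMR1 isoform 1 (31.8), 21 in WT FMR1 isoform 7 (26.8) and 21 in WT FMR1 isoform 1 (17.2). CYFIP2 had no site in FXR1, 4 in FXR2 (11.6 per 100000), 23 in I304N FMR1 isoform 7 (25.9), 44 in I304N FMR1 isoform 1 (33.3), 30 in WT FMR1 isoform 7 (38.2) and 26 in WT FMR1 isoform 1 (21.3). On both transcripts FXR2 had the lowest share among libraries with a site, and intervals of neighbours in the order overlapped throughout.

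For FXR1 the 3-site limit of 33.3 per 100000 lies above the CYFIP1 share in every FMR1 library, and above the CYFIP2 share in I304N FMR1 isoform 7 and WT FMR1 isoform 1, level with it in I304N FMR1 isoform 1 and below it in WT FMR1 isoform 7. The exact interval of the ratio to WT FMR1 isoform 7 on CYFIP2 reaches 1.14 and includes equality, so a difference was not detectable on either CYFIP transcript at the depth of the FXR1 list. FXR2 had 0.303 times the CYFIP2 share of WT FMR1 isoform 7 (0.0776 to 0.860) and 0.541 times its CYFIP1 share (0.160 to 1.48). Against WT FMR1 isoform 1 the FXR2 ratios were 0.543 (0.138 to 1.57) on CYFIP2 and 0.841 (0.248 to 2.29) on CYFIP1, both with intervals that include 1.

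The I304N to WT ratio on the CYFIP transcripts lay above 1 in isoform 1 and below 1 in isoform 7. In isoform 1, I304N had 1.84 times the WT share on CYFIP1 (1.07 to 3.28) and 1.56 times on CYFIP2 (0.940 to 2.64). In isoform 7 the ratios were 0.886 (0.460 to 1.70) and 0.679 (0.377 to 1.21). Joining sites within 50 nt brought the isoform 1 ratios to 1.07 and 0.994 and the isoform 7 ratios to 1.06 and 0.670. Median-of-ratios scaling gave 2.87 and 2.43 in isoform 1 and 1.09 for CYFIP1 in isoform 7. The direction in isoform 1 thus held for CYFIP1 under all 9 alternatives and not for CYFIP2. Of these alternatives, changes of pseudocount could not move a ratio, and counting any overlap with the span did not.

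Sites of the CYFIP transcripts were narrow and scattered over long spans. CYFIP1 had 26 blocks over 110920 nt, led by chr15:22999357-22999571 with 13 sites, chr15:22954223-22954338 with 10 and chr15:22958198-22958322 with 8. CYFIP2 had 31 blocks over 129517 nt, led by chr5:156766081-156766243 with 10 sites, chr5:156786056-156786136 with 10 and chr5:156752491-156752622 with 9. At the first CYFIP1 block, 6 of 13 sites came from I304N FMR1 isoform 1 and 1 from WT FMR1 isoform 1. Of the 106 blocks of the 6 transcripts, 3 had sites in both I304N libraries and in neither WT library, all in CYFIP1. These held 1 or 2 sites per I304N library. The reverse pattern occurred in 1 block, in FMR1. The 5 CYFIP1 and 4 CYFIP2 sites of the FXR2 library each lay in a block with FMR1 sites, and 4 and 3 of them overlapped a site of I304N FMR1 isoform 1. Sites at least 60 nt wide were found in I304N FMR1 isoform 1 alone, 1 of 42 on CYFIP1 and 4 of 44 on CYFIP2. In the last 2500 nt, 0 to 9.52% of CYFIP sites were found by library, against 50% to 60% on FXR2 in the FMR1 and FXR2 libraries. In the last 5000 nt it was 19.0% to 23.8% on CYFIP1 and 0 to 9.09% on CYFIP2, so the share on CYFIP1 depends on the length taken.

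NUFIP2 held the most sites of the 6 transcripts, 326. The FXR1 library had 15 (166 per 100000, 93.1 to 274), FXR2 had 42 (122 per 100000, 87.7 to 164), I304N FMR1 isoform 7 had 48 (54.1), I304N FMR1 isoform 1 had 50 (37.8), WT FMR1 isoform 7 had 42 (53.5) and WT FMR1 isoform 1 had 129 (106, 88.4 to 126). FXR1, FXR2 and WT FMR1 isoform 1 were high with overlapping intervals, and the other 3 FMR1 libraries were low with overlapping intervals. After sites within 50 nt were joined, FXR1 had 6.40 and FXR2 4.50 times the share of WT FMR1 isoform 1, in place of 1.57 and 1.15 times, and by nucleotides covered 0.903 and 0.631 times, so the level of WT FMR1 isoform 1 relative to FXR1 and FXR2 depends on the counting. WT FMR1 isoform 1 stood apart from the other FMR1 libraries here, and it enters 4 of the 9 comparisons.

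I304N FMR1 isoform 1 had 0.357 times the NUFIP2 share of WT FMR1 isoform 1 (0.252 to 0.499), while I304N FMR1 isoform 7 had 1.01 times that of WT FMR1 isoform 7 (0.655 to 1.57). Between wild-type isoforms, isoform 7 had 0.506 times the share of isoform 1 (0.348 to 0.721). These low ratios depended on how sites were counted. WT FMR1 isoform 1 sites on NUFIP2 ran close together, with 32 of 129 at least 60 nt wide (24.8%, 17.6 to 33.2) against 6.35% of the list. After sites within 50 nt were joined they counted as 18, and the ratios turned to 1.16 for I304N in isoform 1 and 1.86 for isoform 7 in WT. As nucleotides covered, both ratios were lower than by sites, 0.251 and 0.255.

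Blocks placed this difference within NUFIP2. Its sites fell into 3 blocks, chr17:27613012-27614733 (1722 nt) and, nearer the 3′ end, chr17:27586663-27591598 (4936 nt) and chr17:27582955-27586169 (3215 nt). The GENCODE transcript NUFIP2-201 has 4 exons, of 336, 1725, 33 and 8756 nt, and all but 50 nt of the last is untranslated. Block and exon lengths were compared only by size. All 6 libraries had sites in each of the 3 blocks.

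In the first block the libraries had 5 sites for FXR1, 11 for FXR2, 21 for I304N FMR1 isoform 7, 24 for I304N FMR1 isoform 1, 19 for WT FMR1 isoform 7 and 22 for WT FMR1 isoform 1. In the second block FXR1 had 8, FXR2 had 21, I304N FMR1 isoform 7 had 20, I304N FMR1 isoform 1 had 18, WT FMR1 isoform 7 had 17 and WT FMR1 isoform 1 had 65. In the third block FXR1 had 2, FXR2 had 10, I304N FMR1 isoform 7 had 7, I304N FMR1 isoform 1 had 8, WT FMR1 isoform 7 had 6 and WT FMR1 isoform 1 had 42. The excess of WT FMR1 isoform 1 over the other FMR1 libraries thus lay in the second and the third block. It did not extend to FXR1 and FXR2 once counts were scaled to the lists. In the second block FXR1 had 1.66 (0.689 to 3.48) and FXR2 1.14 (0.662 to 1.89) times the share of WT FMR1 isoform 1. In the third block these ratios were 0.644 (0.0755 to 2.47) and 0.841 (0.376 to 1.70), and all these intervals include 1. The I304N to WT ratio in isoform 1 was 1.01 (0.540 to 1.88) in the first block, 0.255 (0.143 to 0.436) in the second and 0.176 (0.0712 to 0.379) in the third. In isoform 7 the 3 ratios were 0.979, 1.04 and 1.03. The share of NUFIP2 sites in these blocks, the second and the third, was 66.7% (38.4 to 88.2) in FXR1, 73.8% (58.0 to 86.1) in FXR2, 56.3% in I304N FMR1 isoform 7, 52% in I304N FMR1 isoform 1, 54.8% in WT FMR1 isoform 7 and 82.9% (75.3 to 89.0) in WT FMR1 isoform 1.

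**Figure D4:**
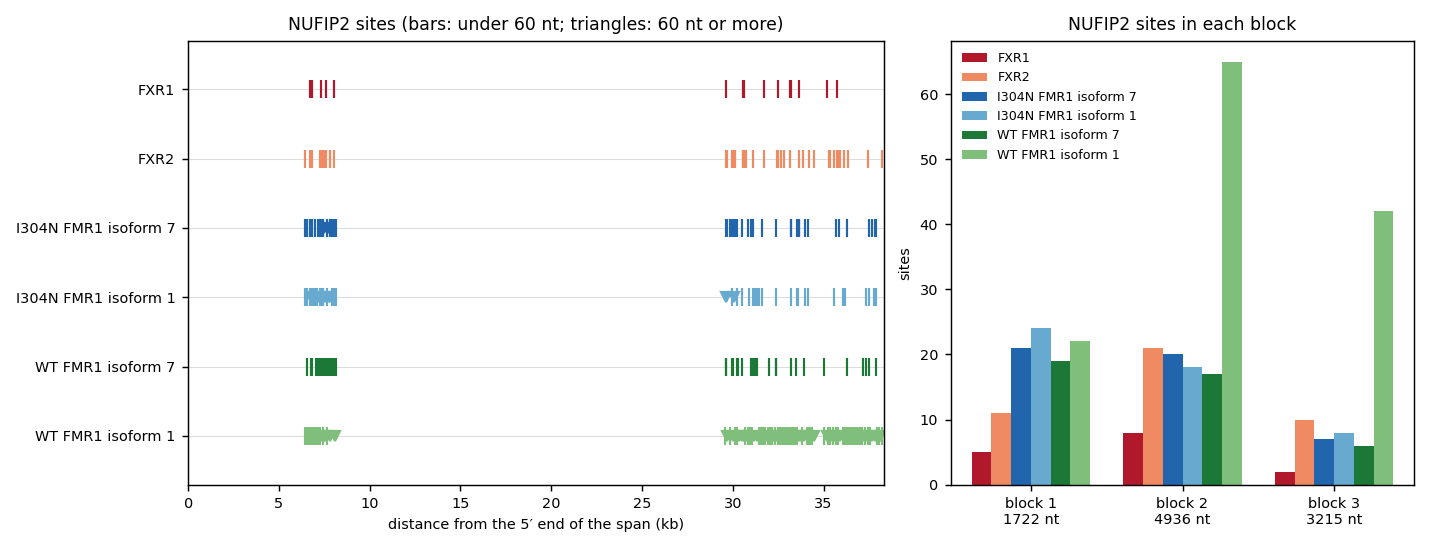
Left, positions of NUFIP2 sites in kb from the 5′ end of the span by library, with bars for sites under 60 nt and triangles for sites of 60 nt or more, not drawn to width. Right, number of sites in each of the 3 blocks by library, not scaled to the length of the lists. WT FMR1 isoform 1 has 65 and 42 sites in the second and the third block, and the other libraries at most 21 and 10.

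Nearly all sites of every other library on NUFIP2 overlapped those of WT FMR1 isoform 1. All 15 FXR1 sites and all 42 FXR2 sites did, against 70.0% and 64.4% over their lists. So did 47 of 48 sites of I304N FMR1 isoform 7, against 42.6% of its list. For I304N FMR1 isoform 1 it was 48 of 50 against 41.7%, and for WT FMR1 isoform 7 it was 40 of 42 against 48.5%. However, WT FMR1 isoform 1 covered 6678 nt of the 9873 nt in blocks, most of their length. With WT FMR1 isoform 7, which covered 864 nt, 4 of 15 FXR1 sites and 11 of 42 FXR2 sites overlapped. FXR1 and FXR2, both set against the same WT library, had 3.11 (1.60 to 5.72) and 2.27 (1.45 to 3.57) times its NUFIP2 share and 1.52 and 1.41 times with median-of-ratios scaling. Between themselves, 13 of 15 FXR1 sites overlapped an FXR2 site (86.7%, 59.5 to 98.3), against 74.4% over the list. Of the FXR2 sites, 13 of 42 overlapped an FXR1 site (31.0%, 17.6 to 47.1), against 19.4% over the list. Both intervals hold the list share.

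Set side by side per length, the transcripts ranked differently in the libraries. Per kb of the longest protein-coding GENCODE transcript, the site number in the FXR2 library was highest on FXR2 with 9.13 and next on NUFIP2 with 3.87, and in FXR1 it was 1.61 on FXR1 and 1.38 on NUFIP2. In WT FMR1 isoform 7 the values were 8.12 for FXR2, 5.77 for FMR1, 4.71 for CYFIP2, 3.87 for NUFIP2, 3.09 for CYFIP1 and 0.804 for FXR1. In WT FMR1 isoform 1 they were 11.9 for NUFIP2, 8.45 for FXR2, 4.38 for FMR1, 4.08 for CYFIP2, 3.09 for CYFIP1 and 1.72 for FXR1. Per kb of transcript FXR1 was lowest in both wild-type FMR1 libraries. However, per kb of gene span it had 0.231 in WT FMR1 isoform 1, above CYFIP1 with 0.189 and CYFIP2 with 0.201. In WT FMR1 isoform 7 the FXR1 transcript stayed lowest per kb of span, with 0.108 against 0.189 for CYFIP1 and 0.232 for CYFIP2. Abundance of the RNAs was not measured, so these values are not affinities.

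Across the 9 comparisons the 6 transcripts were read against all windows of 50 kb with a mean of at least 2 scaled sites, and against those with at least 10 sites over both libraries. A transcript or window was called when its log2 ratio, with a pseudocount of 1, passed 2-fold. For FXR1 against WT FMR1 isoform 1, the FXR1 transcript was called higher, as were 31.5% of all windows and 11.7% of those with at least 10 sites. FMR1, CYFIP1 and CYFIP2, all with 0 FXR1 sites, were called lower, as were 46.5% and 49.3% of windows. Against WT FMR1 isoform 7, FXR1 and NUFIP2 were higher (38.3% and 20% of windows) and FMR1, CYFIP1 and CYFIP2 lower (46.7% and 52.1%). These calls of 3 lower transcripts rest on counts of 0, and 3 of 6 is close to the share of windows.

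For FXR2 against WT FMR1 isoform 1, 1 transcript, FXR2, was higher (14.1% of all windows and 9.79% of those with at least 10 sites) and none was lower (23.2% and 26%). Against WT FMR1 isoform 7, FXR1, FXR2 and NUFIP2 were higher (20.5% and 20.9%) and FMR1 and CYFIP2 were lower (23.6% and 23%). The call of the FXR1 transcript rested on 8 sites against 7, at a ratio of 2.60 with an interval that includes 1 (0.823 to 8.42). For FXR1 against FXR2, the FXR1 transcript was higher (32.9% and 14.4%) and FMR1, FXR2, CYFIP1 and CYFIP2 were lower (39% and 27.2%), the FXR2 transcript with 2 sites against 27 (ratio 0.284, 0.0327 to 1.13). The other 3 lower calls were 0 sites against 3, 5 and 4, with intervals that reach 9.26 on FMR1, 4.18 on CYFIP1 and 5.80 on CYFIP2, so a difference was not detectable at this depth.

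I304N against WT in isoform 1 called no transcript higher (29.9% of all windows and 26.8% of those with at least 10 sites) and NUFIP2 lower (20.4% and 21.4%). In isoform 7 it called none higher (21.4% and 23.4%) and FXR1 lower (20.1% and 14.8%), on 2 sites against 7, with an interval from 0.0256 to 1.33. Isoform 7 against isoform 1 in WT called none higher (21.3% and 15.4%) and none lower (22.4% and 27.2%), with FMR1 and NUFIP2 just within the limit at log2 ratios of 0.99 and -0.97. In I304N it called none higher (5.5% and 4.66%) and FXR1 lower (16.3% and 13.8%), on 2 sites against 11. With median-of-ratios scaling, I304N against WT in isoform 1 called 3 transcripts higher (43.9% of windows) and none lower (9.66%), and isoform 7 against isoform 1 in WT called 4 higher (35.7%).

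The FXR1 and FXR2 comparisons with FMR1 share their WT libraries, so their values are not independent of each other.

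**Figure D5:**
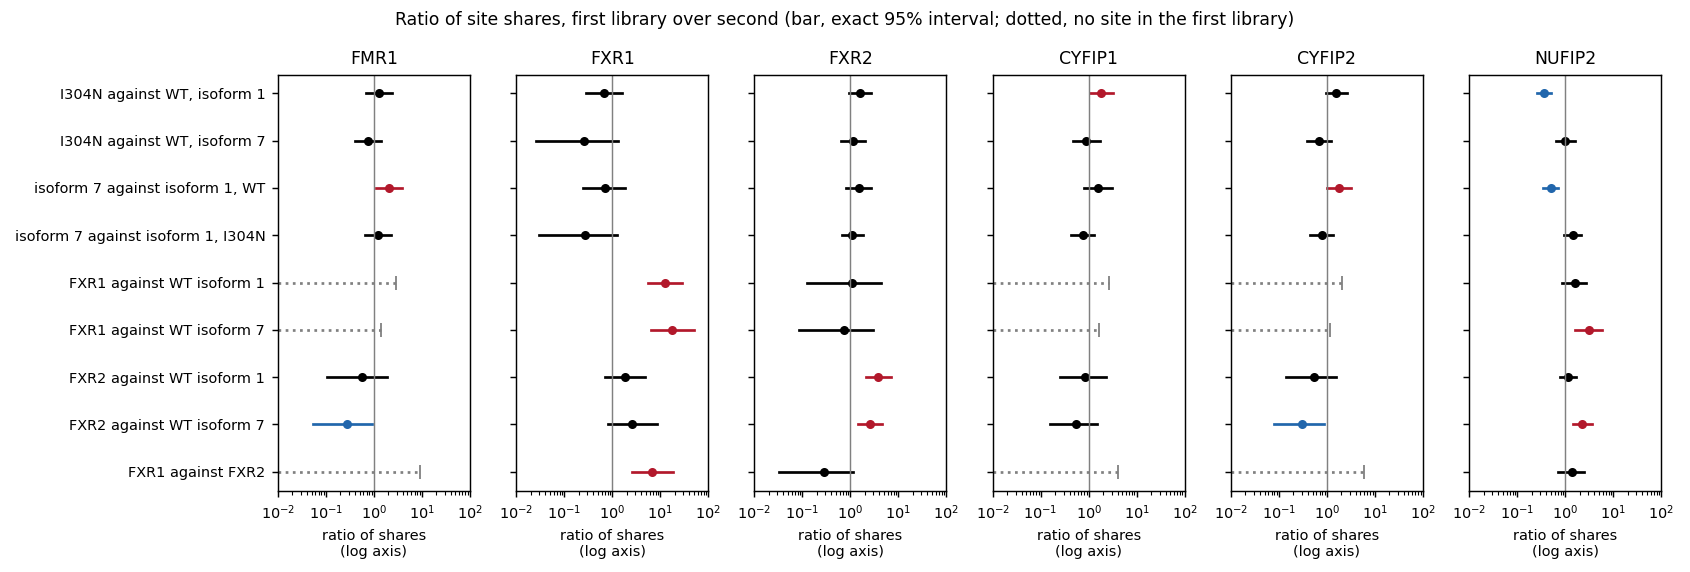
Ratio of site shares, first library over second, on a log axis for the 9 comparisons (rows) and the 6 transcripts (panels), with exact 95% intervals. Red and blue mark intervals wholly above and below 1, and dotted lines run up to the upper limit where the first library had no site. The FXR1 transcript shows the highest ratios, 12.6 and 17.4, for the FXR1 library against the wild-type FMR1 libraries.

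Of FXR2 sites on the 6 transcripts, 73 of 89 overlapped a site of WT FMR1 isoform 1 (82.0%, 72.5 to 89.4), against 64.4% of the list, but 66.0% without NUFIP2. Of FXR1 sites, 24 of 31 did (77.4%, 58.9 to 90.4), against 6311 of 9017 in the list, and 56.3% without NUFIP2. I304N FMR1 isoform 7 met WT FMR1 isoform 7 in 65.8% of its sites (57.5 to 73.4) against 41.9% of the list, and I304N FMR1 isoform 1 met WT FMR1 isoform 1 in 63.7% (56.9 to 70.2) against 41.7%. Without NUFIP2 the last 2 shares were 69.4% and 53.9%. FXR1 sites met FXR2 sites in 58.1% of cases on these transcripts (39.1 to 75.5) against 74.4% over the list, a value within that interval, and in 5 of 16 sites (31.3%) outside NUFIP2.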

How the data were processed

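Sites came from 6 deposited lists, 1 per protein, on the hg19 build. Bowtie 0.12.7 is the aligner that the submitters' processing notes name. Neither the caller that made the sites nor its cutoffs, the number of reads behind a site, the treatment of reads with several matches and the sequencer of each library (the labels name a pair of models) could be taken from the sources used here. The deposited score is a flag, 1000 outside repeats and 0 within them, per the file headers, and 7 member sites carry the repeat flag. A deeper library or a looser caller gives more sites, so site number is not binding strength.

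Sites were counted by midpoint in the 6 spans, scaled to 100000 list sites and compared in ratios without a pseudocount. Calls used log2 ratios with a pseudocount of 1 and a limit of 2-fold. A count of 0 was taken to allow 3 sites. Overlap meant at least 1 nt on the same strand. Members, gene groups and blocks were chosen with earlier results of these data known. All 6 members are named in every comparison, with their 3 fullest blocks and ties, and other features were picked after their values were seen. All 6 members passed the filter on low values in all 9 comparisons. GENCODE release 29 and its build GRCh38 supplied transcript and exon lengths only. Further complex members, motifs and sequences were not analysed here. Counting was tested on simulated data. Python 3.11.15, numpy 2.4.6, scipy 1.17.1 and matplotlib 3.10.9 were used.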

Additional observations from a re-analysis of the deposited data

Results flagged for a closer look

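In 7 cases the same contrast lay above 1 in one isoform or form and below 1 in the other. The 4 given here are those in which an interval of 1 of the ratios left out 1. Where a transcript opposed both by isoform and by form, its cases use the same site counts and have the same quotient. The NUFIP2 cases given here are therefore not separate observations. With 1 library per protein, none of these differences was tested across replicates, and the intervals of their ratios are normal approximations that cover counting error only.

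I304N against WT on CYFIP1 was 1.84 in isoform 1 and 0.886 in isoform 7, and the isoform 7 value divided by the isoform 1 value was 0.480 (0.216 to 1.07). On NUFIP2 the same contrast was 0.357 in isoform 1 and 1.01 (0.655 to 1.57) in isoform 7, a quotient of 2.83 (1.67 to 4.80). Isoform 7 against isoform 1 on CYFIP2 was 1.79 in WT and 0.780 in I304N, and on NUFIP2 it was 0.506 in WT and 1.43 in I304N. For CYFIP2 the quotient of I304N against WT, isoform 7 over isoform 1, was 0.435 (0.210 to 0.901). In each case 1 of the pair of ratios has WT FMR1 isoform 1 as a member. On NUFIP2, 32 of the 129 sites of that library were at least 60 nt wide, and the part of these sites in the differences was not tested. Joining sites within 50 nt turned the NUFIP2 ratios of I304N in isoform 1 to 1.16 and of isoform 7 in WT to 1.86. The CYFIP1 ratio of isoform 7 turned to 1.06 with sites joined and to 1.09 with median-of-ratios scaling. With sites joined the CYFIP1 ratio of isoform 1 was 1.07, so the opposition on CYFIP1 was gone. These 3 directions thus depend on the counting or the scaling.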

How the results depend on the processing

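No paired analysis was possible because each protein had 1 library, and no library could be left out of a comparison. Under 9 other settings for the 54 ratios, 467 values lay within the exact interval of the reported ratio and 18 outside it, and 1 transcript that had been called changed direction. The changes of pseudocount could not move these ratios, which have none, and counting any overlap with the span moved none. Each of these settings adds 54 values within the interval, so the 467 is by itself no measure of stability. In all, 19 values changed side of 1, 8 with sites joined, 6 by nucleotides covered, 4 with median-of-ratios scaling and 1 without wide sites, among them NUFIP2 for isoform 7 in WT (1.86) and FMR1 for FXR2 against WT FMR1 isoform 1 (1.99). The called one was NUFIP2 for I304N against WT in isoform 1, at a log2 ratio of 0.21 (1.16-fold) after sites within 50 nt were joined. Counts of transcripts called stayed within 1.5 times in 141 cases and left that range in 21, given here with the share of windows called in that direction under the same setting. With median-of-ratios scaling, I304N in isoform 1 called 3 higher (43.9%) and 0 lower (9.66%), isoform 7 in WT called 4 higher (35.7%), FXR1 against WT FMR1 isoform 7 called 1 higher (24.5%), and FXR2 against WT FMR1 isoform 7 called 0 higher (12.5%). A pseudocount of 0.5 gave 1 higher for isoform 7 in WT (23.5%). A pseudocount of 5 gave 0 lower for I304N in isoform 7 (10.4%) and 0 lower for isoform 7 in I304N (5.44%). Without repeat sites, FXR2 against WT FMR1 isoform 1 called 2 higher (14.3%). With sites joined, I304N in isoform 1 called 0 lower (17.6%), FXR1 against WT FMR1 isoform 1 called 2 higher (28.3%), FXR2 against WT FMR1 isoform 1 called 2 higher (11.8%) and 2 lower (28.5%), and FXR2 against WT FMR1 isoform 7 called 1 higher (17.7%). By nucleotides covered, I304N in isoform 1 called 2 higher (34.5%), isoform 7 in WT called 1 higher (26.6%) and 1 lower (21.5%), and FXR2 against WT FMR1 isoform 1 called 2 higher (21.3%) and 1 lower (17.3%). Without sites of 60 nt or more, I304N in isoform 1 called 1 higher (29.4%) and isoform 7 in WT called 1 higher (20.9%). The causes of these shifts were not tested.

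An overlap of 50% of both sites lowered the share of member sites shared with the wild-type library to 35.5% for FXR1 and 31.5% for FXR2 against WT FMR1 isoform 1, 47.3% for I304N FMR1 isoform 7 and 36.7% for I304N FMR1 isoform 1. Leaving out NUFIP2, chosen after seeing the data, gave 56.3%, 66.0% and 53.9% for FXR1, FXR2 and I304N FMR1 isoform 1. In the last 1000 nt, 7.41% (0.910 to 24.3) of the FXR2 sites of the FXR2 library were found. The number of blocks stayed within 1.5 times of 106 at gaps of 50 and 500 nt. Adding 10 kb on either side of the spans, also chosen later, left every site count within its interval. The FXR1 list limits what can be seen, since 0 of its 9017 sites still allows 33.3 per 100000.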
